A study of Homo sapiens with 6 samples.

Results

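The 56 genes described here build and run the DNA replication machinery of S phase, from origin licensing through the replication fork to the supply of deoxynucleotides. They were taken from a list of gene symbols that uses no measured value, although the list was chosen with earlier results of these data known. All 56 were found among the 62438 genes of the deposited count table. All 56 also passed the filter on low counts, which left 17320 genes for testing. Their levels were compared between MDA-MB-453 cells, a human breast cancer line, carrying an siRNA against N6AMT1 (si-N6AMT1, 3 libraries) and the same cells carrying a scrambled siRNA (si-CN, 3 libraries), each at 10 nM for 48 h, with RNA from triplicate cells and polyadenylated RNA made into stranded libraries. N6AMT1 encodes a methyltransferase that the study examines as a writer of N6-methyladenine in DNA, and the comparison asks which mRNAs change when it is lowered. The labels name the siRNA only by its target, so effects of the siRNA on other transcripts and the loss of N6AMT1 cannot be told apart. Nothing in the labels says that the triplicates came from separate cultures, so the p-values measure the spread between these libraries, which may be technical.

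Replication starts in G1, when the origin recognition complex with CDC6 and CDT1 loads the MCM2 to MCM7 ring onto DNA. At the start of S phase the kinases CDC7 and CDK2 turn this ring into an active helicase together with CDC45 and the GINS complex, and DNA polymerases alpha, delta and epsilon copy the strands with the PCNA clamp and its loader. Many of these genes are transcribed periodically under E2F factors, which makes them widely used markers of proliferating cells, breast cancer cells included.

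The libraries held 19739247 to 21289740 counts. N6AMT1 itself stood at 135 to 141 counts per si-CN library and 60 to 72 counts per si-N6AMT1 library, a log2 fold change of -1.10 (standard error 0.119, edgeR FDR = 3.65e-07). Markers of the labelled cell type were mixed. KRT8 and KRT18, keratins of luminal cells, had 449.9 to 604 CPM across the si-CN libraries, but KRT19, another luminal keratin, and SPDEF, a luminal transcription factor, stayed under 1 CPM in every library. KRT5, a basal keratin, had 755 to 787 CPM in the si-CN libraries, and the luminal list summed to 1379 to 1416 CPM in si-CN and 1437 to 1456 CPM in si-N6AMT1 libraries, against 4526 to 4618 CPM and 4588 to 4677 CPM for the basal list. Of the 7 luminal markers tested 3 were upregulated and 1 downregulated, as were 3 and 0 of 5 basal markers. Among the 8 markers of immune, endothelial, stromal and blood cells found in the table, PTPRC and CD3E stayed under 1 CPM in every library, 1 marker was upregulated and 1 downregulated, and the summed level was 209.7 to 213 CPM in si-CN and 262 to 273 CPM in si-N6AMT1 libraries, most of it from CD68. These markers go against the luminal type of the labelled line, the cells are called here by their label only, and the part of these markers in the results below was not tested.

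After si-N6AMT1, 23 of the 56 replication genes were downregulated, 3 were upregulated and 30 did not pass the test at an FDR under 0.05. Among all 17320 genes tested, 11.5% were downregulated and 9.78% upregulated, 21.3% in either direction. The replication genes are expressed well above the filter, and of the 8592 tested genes whose si-CN level lay in the same range, from 15.2 to 324 CPM, 19.6% were downregulated and 14.3% upregulated. Downregulated genes made up 41.1% of the replication genes. Changes were small. The log2 fold changes of the 56 genes had a median of -0.08, beside 0.00 over all genes tested, and those of the 23 downregulated genes a median of -0.17. CDC6 fell furthest and POLD4 rose furthest. In all, 46 of the 56 genes had a negative log2 fold change, beside 49.1% of all tested genes and 52.3% of those in the same range of level. In 29 of the 56 each si-N6AMT1 library lay below each si-CN library, and in 5 each lay above. Among all tested genes 18.0% and 16.8% showed these patterns, as did 2300 and 1833 of the 8592 genes in the same range. All 26 called genes were among these 34 replication genes. The 56 genes together took 4583 ± 41.6 CPM in si-CN and 4258 ± 21.8 CPM in si-N6AMT1 libraries (SD, n = 3 each). In bulk RNA of this kind, fewer cells in S phase and less of each mRNA per cell cannot be told apart.

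**Figure D1:**
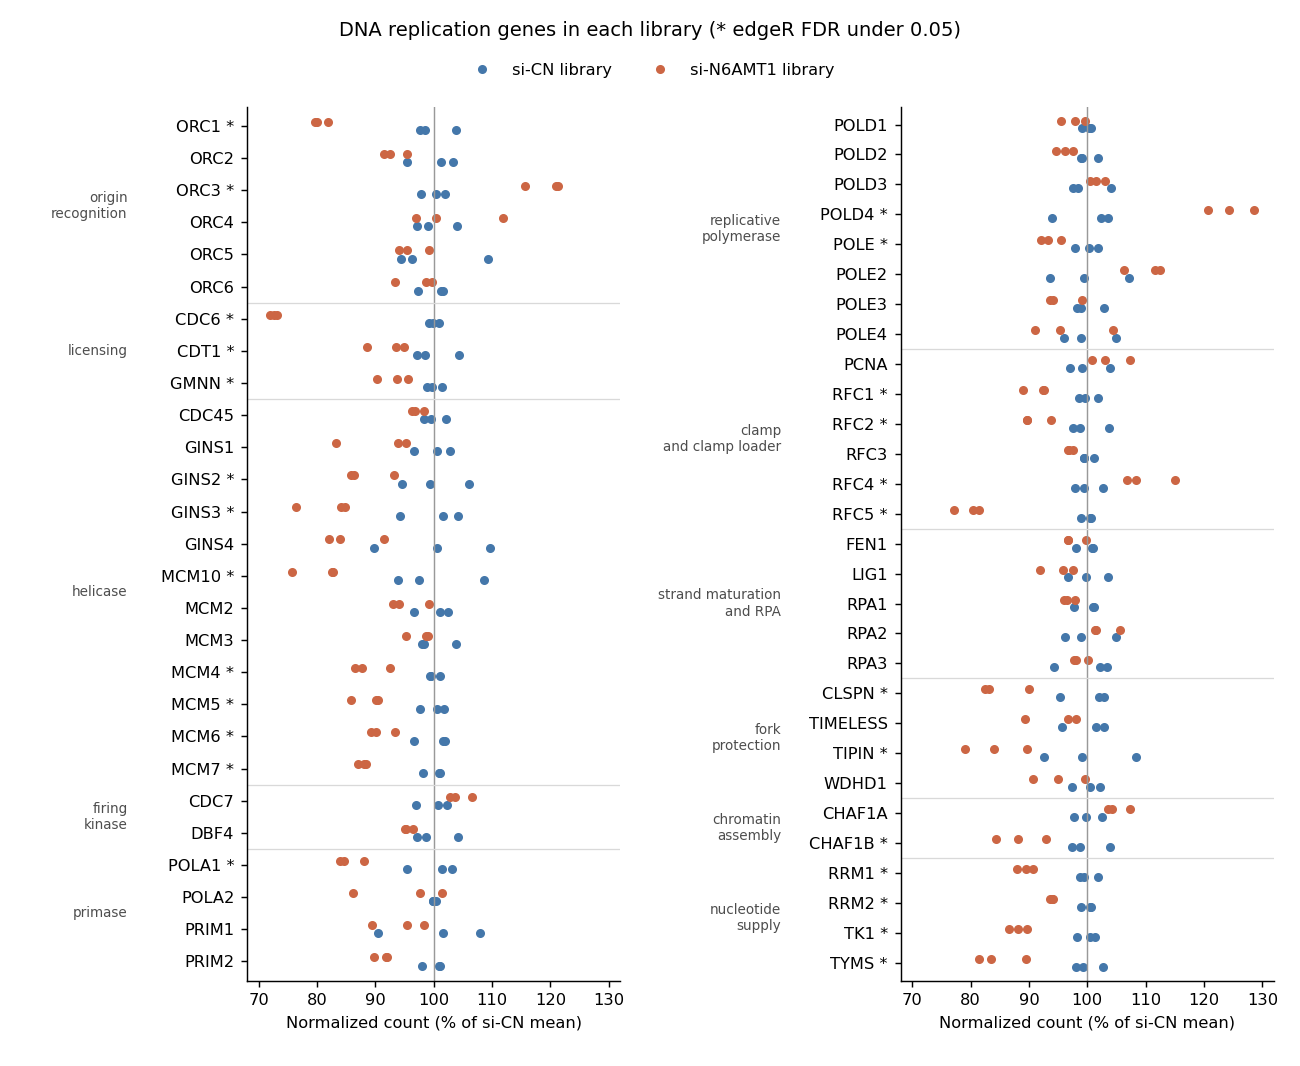
Normalized counts of each of the 56 replication genes in the 3 si-CN (blue) and 3 si-N6AMT1 (orange) libraries, as a percentage of the gene's si-CN mean, in rows by role, with an asterisk at genes with an edgeR FDR under 0.05. The si-N6AMT1 libraries lie left of the si-CN libraries without overlap in 29 genes, CDC6 furthest, and right of them in 5, POLD4 furthest.

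Values are library-scaled counts (CPM) using edgeR's TMM factors, listed for replicates 1, 2 and 3 of a group, and FDR is the adjusted p of edgeR's quasi-likelihood test over all 17320 genes. With 3 libraries against 3, an exact permutation test of a single gene cannot give a p under 0.1, so calls rest on the spread that edgeR shares between genes.

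Promoters of the replication genes often held an E2F-type sequence. The 7-base forms TTCCCGC or TTCGCGC or TTGCCGC or TTGGCGC were searched on both strands in the RefSeq promoter of each gene (GRCh38.p14, from 250 bases before to 50 bases after the annotated start), and overlapping matches were counted as a single site. A match stood in 33 of the 50 replication gene promoters matched by symbol (66.0%), in 13.1% of all 27305 promoters and in 19.8% of those of tested genes. Of the 33 genes with a match 16 were downregulated and 2 upregulated, and of the 17 without a match 5 were downregulated and 1, POLD4, was upregulated. Median log2 fold changes were -0.10 and -0.06. Over all tested genes with a promoter, 16.1% of those with a match and 12.8% of those without were downregulated. The pentamer CCAAT, searched on both strands, stood in 28 of the 50 promoters, in 35.7% of all promoters and in 36.7% of those of tested genes. Of the 28 genes with it 14 were downregulated, and of the 22 without it 7, beside 13.8% and 13.3% of all tested genes with and without it. TTTGAA or TTCGAA, the core of the cell cycle homology region found in promoters of many G2/M genes, stood in 3 (6.00%), those of DBF4, MCM6 and RRM1, beside 16.6% of all promoters and 11.6% of those of tested genes. These matches describe letters in a window and are not measured binding sites. MCM4, MCM5, GINS4, POLD3, RPA2 and RPA3 were not matched. Shown is a site from each of 8 called genes of licensing, origin recognition, the MCM ring, the clamp loader and nucleotide supply, 5′ to 3′ on the gene's strand, with the matched bases in capitals.
CDC6: attcggatTTGGCGCgagcgcgg
ORC1: cacgccgaTTGGCGCGAAgttttctt
ORC3: gagggcgcGCGGGAAatcccgag
MCM6: ggtcaggtTTGGCGCGAAatctccag
MCM7: ggcgacgtTTCGCGCCAAtttcggtt
RFC5: gcttttgcGCGCGAActgtaagt
RFC4: ccggcgtaTTCCCGCcctgcttt
TYMS: ggacggccGCGGGAAaaggcgcg
They lie at chr17:40287879-40287901, chr1:52404428-52404453, chr6:87590115-87590137, chr2:135876515-135876540, chr7:100101388-100101413, chr12:118016710-118016732, chr3:186806478-186806500 and chr18:657606-657628, with ORC1, MCM6, MCM7 and RFC4 on the minus strand. ORC1 and RFC5, which were downregulated, and ORC3 and RFC4, which were upregulated, each carried a match. The part of these matches in the changes was not tested.

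The 3 genes listed under licensing, including an inhibitor, were all downregulated. CDC6 (ENSG00000094804, chr17:38444131-38460909 on the plus strand of GRCh37), the ATPase that joins the origin recognition complex to load MCM rings, had 137, 135 and 136 CPM in the si-CN libraries and 97.8, 98.8 and 99.5 CPM in the si-N6AMT1 libraries (log2 fold change -0.46, standard error 0.0263, edgeR FDR = 1.44e-11). The groups were far apart, with an SD of 1.16 CPM in si-CN and 0.859 CPM in si-N6AMT1 libraries (n = 3 each), and omitting any library kept the change between -0.47 and -0.45. CDT1, its partner in MCM loading, had 54.7, 55.4 and 58.7 CPM in the si-CN libraries and 53.4, 52.6 and 49.8 CPM in the si-N6AMT1 libraries (log2 fold change -0.12, standard error 0.0398, edgeR FDR = 0.0391). GMNN, which encodes geminin, the inhibitor of CDT1, had 69.1, 68.5 and 70.2 CPM in the si-CN libraries and 62.5, 66.2 and 64.9 CPM in the si-N6AMT1 libraries (log2 fold change -0.10, standard error 0.0341, edgeR FDR = 0.0352). Neither call was firm. Without si-N6AMT1 replicate 2 or 3, or si-CN replicate 2 or 3, the edgeR FDR of CDT1 was 0.0657, 0.200, 0.0541 and 0.228, and that of GMNN ran from 0.0550 to 0.152 without any of the libraries other than si-N6AMT1 replicate 2. The ratio of CDC6 to GMNN was 1.96 ± 0.0273 in si-CN and 1.53 ± 0.0369 in si-N6AMT1 libraries (SD, n = 3 each), and that of CDT1 to GMNN, the loader to its inhibitor, was 0.812 ± 0.0223 in si-CN and 0.805 ± 0.0446 in si-N6AMT1 libraries (SD, n = 3 each). CDC6 thus fell relative to both CDT1 and GMNN in every si-N6AMT1 library, while the CDT1 to GMNN ratios of the groups overlapped.

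**Figure D2:**
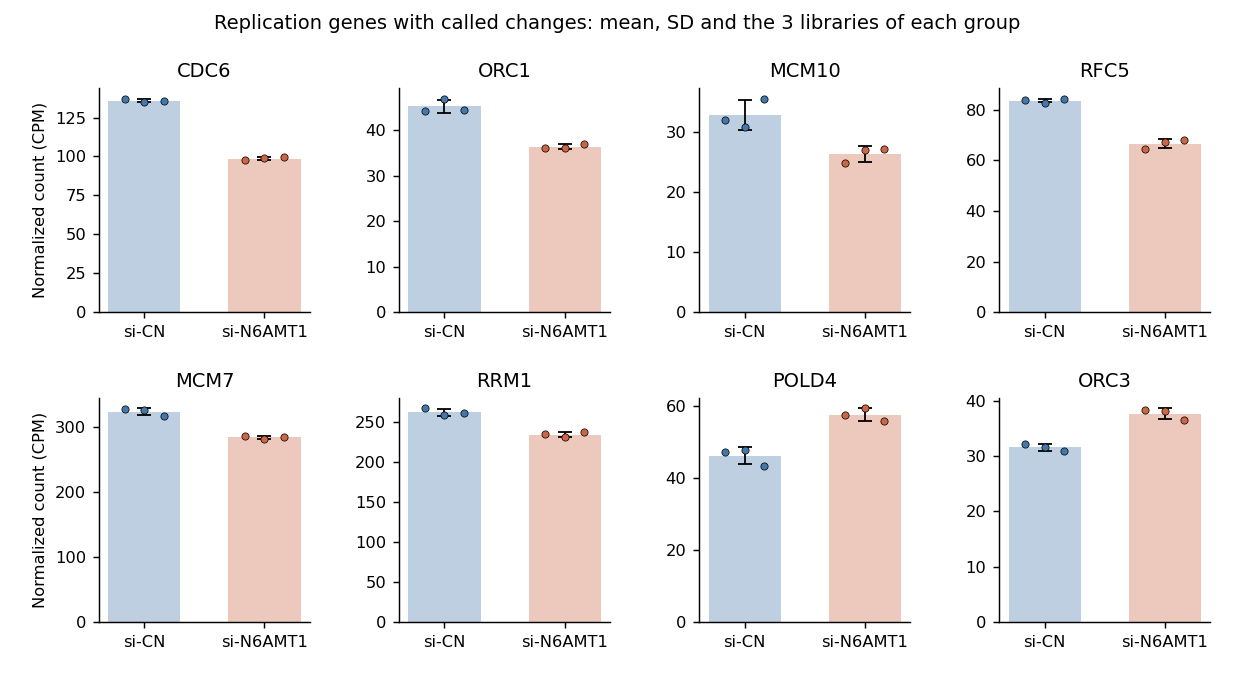
Normalized counts (CPM) of 8 replication genes in the si-CN (blue) and si-N6AMT1 (orange) groups, with bars at the mean, error bars at the SD of 3 libraries and a point for each library. CDC6, ORC1, MCM10, RFC5, MCM7 and RRM1 were lower in every si-N6AMT1 library, whereas POLD4 and ORC3 were higher.

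Subunits of the origin recognition complex (ORC1 to ORC6), which marks origins, moved apart. ORC1 (ENSG00000085840, chr1:52838501-52870095), the subunit whose level oscillates in the cell cycle, had 44.2, 47.0 and 44.6 CPM in the si-CN libraries and 36.2, 36.1 and 37.1 CPM in the si-N6AMT1 libraries (log2 fold change -0.31, standard error 0.0417, edgeR FDR = 6.59e-06). ORC3 (ENSG00000135336, chr6:88299785-88377171), a structural subunit of the core, had 32.1, 31.6 and 30.8 CPM in the si-CN libraries and 38.2, 38.2 and 36.5 CPM in the si-N6AMT1 libraries (log2 fold change 0.25, standard error 0.0441, edgeR FDR = 1.64e-04). In both genes the groups did not overlap, in opposite directions, and the ratio of ORC1 to ORC3 went from 1.44 ± 0.0561 in si-CN to 0.970 ± 0.0401 in si-N6AMT1 libraries (SD, n = 3 each). The other 4 subunits were not called. ORC2 had a log2 fold change of -0.10 ± 0.0433 (SE), edgeR FDR = 0.103, with groups that did not overlap. For ORC4, ORC5 and ORC6 the values were 0.05, -0.05 and -0.04, each with overlapping groups. ORC4 had an si-N6AMT1 replicate 3 of 39.4 CPM, above the other 5 libraries at 34.2 to 36.7 CPM.

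All 12 helicase genes had negative log2 fold changes, and 7 were called. Within the MCM2 to MCM7 ring, which unwinds DNA, 4 of 6 subunits were downregulated by similar amounts. MCM7 had 327, 327 and 318 CPM in the si-CN libraries and 286, 282 and 285 CPM in the si-N6AMT1 libraries (log2 fold change -0.19, standard error 0.0222, edgeR FDR = 1.35e-06). MCM4 had 287, 287 and 292 CPM in the si-CN libraries and 267, 253 and 249.6 CPM in the si-N6AMT1 libraries (log2 fold change -0.17, standard error 0.0253, edgeR FDR = 2.75e-05). MCM5 had 104, 105 and 101 CPM in the si-CN libraries and 88.8, 93.3 and 93.6 CPM in the si-N6AMT1 libraries (log2 fold change -0.17, standard error 0.0304, edgeR FDR = 2.21e-04). No si-N6AMT1 library reached the si-CN libraries in these 3 genes. MCM6 had 85.5, 81.3 and 85.8 CPM in the si-CN libraries and 78.6, 75.9 and 75.2 CPM in the si-N6AMT1 libraries (log2 fold change -0.14, standard error 0.0328, edgeR FDR = 0.00354). MCM2 and MCM3 were not called, with log2 fold changes of -0.07 ± 0.0283 (SE), edgeR FDR = 0.0946, and -0.03 ± 0.0277 (SE), edgeR FDR = 0.445. MCM2 passed the threshold when si-N6AMT1 replicate 1, or si-CN replicate 2, was omitted (edgeR FDR = 0.0210 and 0.0371). With other libraries omitted, its edgeR FDR rose as high as 0.348. Summed over the 6 subunits, the level was 1162 ± 10.6 CPM in si-CN and 1058 ± 18.3 CPM in si-N6AMT1 libraries (SD, n = 3 each).

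MCM10, which helps the assembled helicase to start, had the largest fall of the helicase group. It had 31.9, 30.7 and 35.5 CPM in the si-CN libraries and 24.8, 26.99 and 27.1 CPM in the si-N6AMT1 libraries (log2 fold change -0.32, standard error 0.0567, edgeR FDR = 2.34e-04). Relative to their mean, the si-CN libraries of MCM10 differed more among themselves than those of the MCM ring, but the groups did not overlap. GINS3, a subunit of the GINS complex that holds the helicase together, had 34.3, 33.5 and 31.1 CPM in the si-CN libraries and 27.9, 27.7 and 25.2 CPM in the si-N6AMT1 libraries (log2 fold change -0.29, standard error 0.0535, edgeR FDR = 3.33e-04). GINS2 had 33.9, 31.8 and 30.3 CPM in the si-CN libraries and 27.6, 27.5 and 29.8 CPM in the si-N6AMT1 libraries (log2 fold change -0.17, standard error 0.0527, edgeR FDR = 0.0202). The GINS2 call was lost without si-N6AMT1 replicate 1, si-N6AMT1 replicate 2 or si-CN replicate 1, with an edgeR FDR of 0.0723, 0.0865 and 0.117. GINS1 and GINS4 missed the threshold, with log2 fold changes of -0.14 ± 0.0524 (SE), edgeR FDR = 0.0678, and -0.22 ± 0.0794 (SE), edgeR FDR = 0.0557. GINS1 was called without si-N6AMT1 replicate 3 (edgeR FDR = 0.0473) and GINS4 without si-N6AMT1 replicate 3 or si-CN replicate 3 (edgeR FDR = 0.0457 and 0.0176). With other libraries omitted, the edgeR FDR rose as high as 0.337 for GINS1 and 0.264 for GINS4. CDC45, the remaining helicase subunit, had 35.1, 34.7 and 36.1 CPM in the si-CN libraries and 34.2, 34.7 and 34.0 CPM in the si-N6AMT1 libraries, a log2 fold change of -0.04 ± 0.0430 (SE), edgeR FDR = 0.553. Its groups overlapped, unlike those of most GINS and MCM genes. CDC7 and its activator DBF4, the kinase that fires licensed origins, were not called (log2 fold changes 0.06 ± 0.0362 (SE), edgeR FDR = 0.269, and -0.06 ± 0.0403 (SE), edgeR FDR = 0.297). No call was made for either by DESeq2 or at an unadjusted p under 0.05, although the libraries of the groups did not overlap and moved in opposite directions, CDC7 upward and DBF4 downward.

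**Figure D3:**
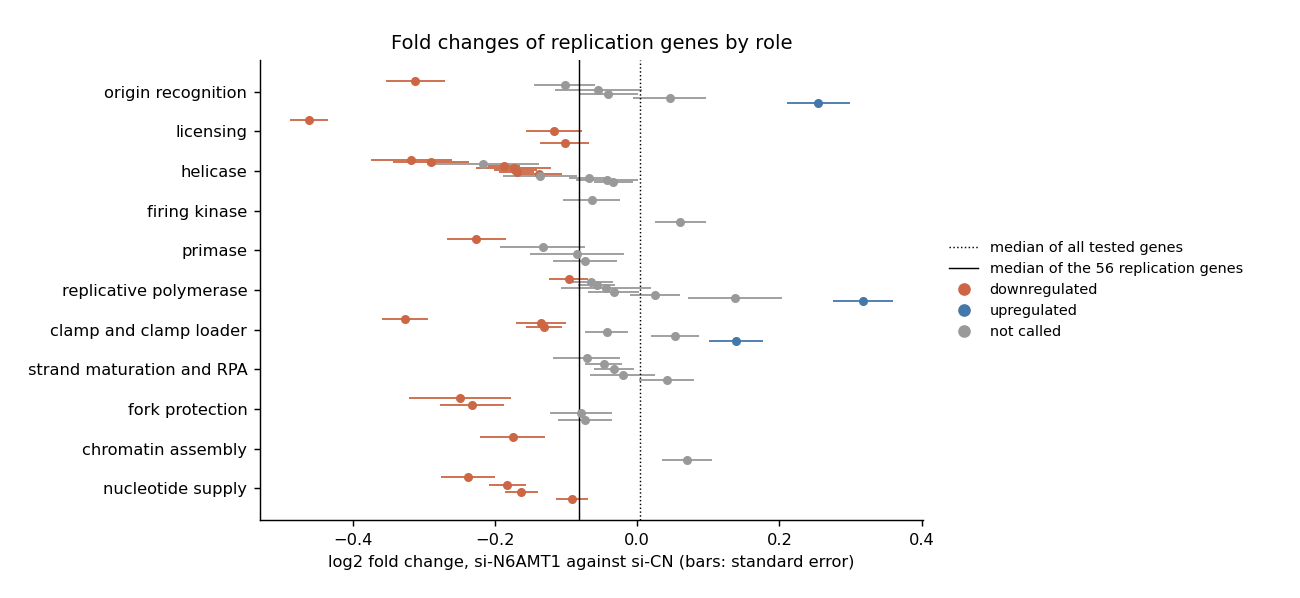
Log2 fold changes of the 56 replication genes (si-N6AMT1 against si-CN, horizontal axis, bars showing the standard error) by role, in orange where downregulated, blue where upregulated and grey where not called. The solid line marks the median of the 56 genes at -0.08 and the dotted line that of all tested genes. Helicase, licensing, primase, fork protection and nucleotide supply genes lie left of 0 throughout.

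Of the 12 primase and polymerase genes, 2 were downregulated and 1 was upregulated. These counts are near the shares of all tested genes, 11.5% downregulated and 9.78% upregulated. In the same range of level the shares were 19.6% and 14.3%. POLA1, the catalytic subunit of polymerase alpha, which lays down the primers with primase, had 47.1, 50.02 and 50.9 CPM in the si-CN libraries and 43.4, 41.8 and 41.4 CPM in the si-N6AMT1 libraries (log2 fold change -0.23, standard error 0.0414, edgeR FDR = 3.06e-04). The other subunits of this complex, POLA2, PRIM1 and PRIM2, had log2 fold changes of -0.07, -0.09 and -0.13 and were not called. In POLA2 the si-N6AMT1 libraries ran from 55.3 (replicate 2) to 65.0 CPM (replicate 1), on both sides of the si-CN libraries at 64.0 to 64.3 CPM. POLE, the catalytic subunit of polymerase epsilon on the leading strand, had 128, 123 and 126 CPM in the si-CN libraries and 120.3, 117 and 116 CPM in the si-N6AMT1 libraries (log2 fold change -0.10, standard error 0.0273, edgeR FDR = 0.0135). This call did not hold without si-N6AMT1 replicate 3, si-CN replicate 1 or si-CN replicate 3 (edgeR FDR = 0.0753, 0.0593 and 0.0549). Its partners POLE2, POLE3 and POLE4 had log2 fold changes of 0.14, -0.06 and -0.04 and were not called.

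POLD4 (ENSG00000175482, chr11:67118243-67124443 on the minus strand), the smallest subunit of the lagging strand polymerase delta, rose most among the 56 genes. It had 47.2, 47.8 and 43.3 CPM in the si-CN libraries and 57.3, 59.3 and 55.6 CPM in the si-N6AMT1 libraries (log2 fold change 0.32, standard error 0.0419, edgeR FDR = 5.52e-06). Catalytic POLD1 had 53.7, 53.2 and 53.9 CPM in the si-CN libraries and 52.5, 51.2 and 53.4 CPM in the si-N6AMT1 libraries, a log2 fold change of -0.03 ± 0.0362 (SE), edgeR FDR = 0.581. The ratio of POLD4 to POLD1 was 0.860 ± 0.0503 in si-CN and 1.10 ± 0.0580 in si-N6AMT1 libraries (SD, n = 3 each). POLD2 and POLD3 had log2 fold changes of -0.06 ± 0.0266 (SE), edgeR FDR = 0.141, and 0.02 ± 0.0348 (SE), edgeR FDR = 0.682. Another gene, ENSG00000256514, overlaps the POLD4 gene body by 5401 bases on the same strand and had 9.01% as many counts in si-CN libraries. It also rose (log2 fold change 0.83, edgeR FDR = 0.00174), so the division of counts between these transcripts could bear on both values.

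Among genes of the clamp and its loader, RFC5 and RFC4 moved in opposite directions. RFC5 (ENSG00000111445, chr12:118451393-118470935), a small subunit of the RFC complex that opens PCNA and puts it on DNA, had 84.0, 82.8 and 84.3 CPM in the si-CN libraries and 64.6, 67.3 and 68.2 CPM in the si-N6AMT1 libraries (log2 fold change -0.33, standard error 0.0323, edgeR FDR = 9.70e-08). RFC4, another small subunit of the same complex, had 53.3, 55.9 and 54.2 CPM in the si-CN libraries and 58.2, 62.7 and 59.1 CPM in the si-N6AMT1 libraries (log2 fold change 0.14, standard error 0.0381, edgeR FDR = 0.0104). Without si-N6AMT1 replicate 2, RFC4 was not called (edgeR FDR = 0.0883). The ratio of RFC5 to RFC4 was 1.54 ± 0.0497 in si-CN and 1.11 ± 0.0409 in si-N6AMT1 libraries (SD, n = 3 each), with no overlap between groups. RFC1, the large subunit, had 169.6, 168 and 173 CPM in the si-CN libraries and 158, 157 and 151 CPM in the si-N6AMT1 libraries (log2 fold change -0.13, standard error 0.0258, edgeR FDR = 6.28e-04). RFC2 had 75.6, 71.05 and 71.9 CPM in the si-CN libraries and 65.3, 65.3 and 68.4 CPM in the si-N6AMT1 libraries (log2 fold change -0.13, standard error 0.0350, edgeR FDR = 0.00705). RFC3 was not called, with a log2 fold change of -0.04 ± 0.0306 (SE), edgeR FDR = 0.366. PCNA, the clamp itself and a common marker of proliferation, was not called and had 88.0, 83.9 and 82.2 CPM in the si-CN libraries and 85.4, 90.9 and 87.2 CPM in the si-N6AMT1 libraries, a log2 fold change of 0.05 ± 0.0335 (SE), edgeR FDR = 0.295.

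Genes for joining Okazaki fragments and for binding single-stranded DNA showed no detectable change. FEN1, the flap nuclease, and LIG1, the ligase, had log2 fold changes of -0.03 ± 0.0279 (SE), edgeR FDR = 0.461, and -0.07 ± 0.0465 (SE), edgeR FDR = 0.319. RPA1, RPA2 and RPA3, the subunits of the replication protein A complex, had -0.05, 0.04 and -0.02. None of these 5 genes passed by edgeR, DESeq2 or limma-voom, nor at an unadjusted p under 0.05, with standard errors of 0.0260 to 0.0465 on the log2 scale.

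Fork protection and chromatin assembly genes were divided. CLSPN, which encodes claspin, the adaptor between a stalled fork and CHEK1, had 46.1, 43.1 and 46.5 CPM in the si-CN libraries and 40.7, 37.7 and 37.3 CPM in the si-N6AMT1 libraries (log2 fold change -0.23, standard error 0.0450, edgeR FDR = 5.39e-04). TIPIN, the partner of TIMELESS in the fork protection complex, had 17.2, 18.4 and 20.2 CPM in the si-CN libraries and 15.6, 16.7 and 14.7 CPM in the si-N6AMT1 libraries (log2 fold change -0.25, standard error 0.0718, edgeR FDR = 0.0151). TIPIN has few counts, and its call was lost without si-N6AMT1 replicate 3 or si-CN replicate 3 (edgeR FDR = 0.0860 and 0.121). TIMELESS and WDHD1, which links the helicase to polymerase alpha, had log2 fold changes of -0.08 ± 0.0434 (SE), edgeR FDR = 0.224, and -0.07 ± 0.0373 (SE), edgeR FDR = 0.183. Of the subunits of chromatin assembly factor 1, which deposits histones behind the fork, CHAF1B had 41.7, 39.6 and 39.0 CPM in the si-CN libraries and 33.9, 37.3 and 35.4 CPM in the si-N6AMT1 libraries (log2 fold change -0.17, standard error 0.0458, edgeR FDR = 0.00751). CHAF1A was not called and had 57.8, 58.9 and 60.6 CPM in the si-CN libraries and 61.6, 63.4 and 61.1 CPM in the si-N6AMT1 libraries (log2 fold change 0.07 ± 0.0352 (SE), edgeR FDR = 0.179). CHAF1B thus lay lower and CHAF1A higher in every si-N6AMT1 library, although only the CHAF1B change passed the test. DESeq2 on all genes did not call CHAF1B.

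All 4 genes of deoxynucleotide supply were downregulated. TYMS, thymidylate synthase, had 70.6, 68.4 and 67.4 CPM in the si-CN libraries and 61.6, 56.03 and 57.4 CPM in the si-N6AMT1 libraries (log2 fold change -0.24, standard error 0.0381, edgeR FDR = 6.70e-05). TK1, the thymidine kinase of S phase, had 147, 143 and 146 CPM in the si-CN libraries and 130.1, 126 and 128 CPM in the si-N6AMT1 libraries (log2 fold change -0.18, standard error 0.0263, edgeR FDR = 1.80e-05). RRM1, the large subunit of ribonucleotide reductase, had 267, 259 and 261 CPM in the si-CN libraries and 234, 230.5 and 238 CPM in the si-N6AMT1 libraries (log2 fold change -0.16, standard error 0.0233, edgeR FDR = 1.70e-05). In these genes the lowest si-CN library stood above the highest si-N6AMT1 library by more than the spread within either group. RRM2, the small subunit that limits the enzyme in S phase, had 263, 263 and 259 CPM in the si-CN libraries and 245, 246 and 246 CPM in the si-N6AMT1 libraries (log2 fold change -0.09, standard error 0.0222, edgeR FDR = 0.00405), and the ratio of RRM1 to RRM2 was 1.00 ± 0.0159 in si-CN and 0.954 ± 0.0155 in si-N6AMT1 libraries (SD, n = 3 each).

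Levels were compared between genes only after division by the length of a reference transcript of each gene, which leaves out other isoforms. On this scale of CPM per kb the subunits of a complex were far from equal in si-CN cells. MCM7 stood highest of all 56 genes, at 131 ± 2.11 CPM per kb (SD, n = 3), followed within the ring by MCM4 at 71.01 ± 0.695, MCM2 at 58.6 ± 1.81, MCM3 at 52.4 ± 1.70, MCM5 at 29.95 ± 0.624 and MCM6 at 22.4 ± 0.668. No neighbours in this order overlapped between libraries. In the origin recognition complex ORC6 led at 26.8 ± 0.638 CPM per kb, then ORC1 at 14.5 ± 0.489, ORC3 at 12.6 ± 0.263, ORC5 at 12.1 ± 0.988, ORC2 at 9.59 ± 0.394 and ORC4 at 5.39 ± 0.193, where ORC3 and ORC5 overlapped. In si-N6AMT1 libraries ORC3, at 15.1 ± 0.398 CPM per kb, stood above ORC1, at 11.7 ± 0.168 (SD, n = 3). RFC subunits were closer to each other, from 33.9 ± 0.340 CPM per kb for RFC3 to 43.2 ± 1.43 for RFC2, and RFC4 and RFC5, which overlapped in si-CN at 39.9 ± 0.965 and 39.8 ± 0.366, separated in si-N6AMT1 libraries to 43.9 ± 1.76 and 31.7 ± 0.887 CPM per kb.

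**Figure D4:**
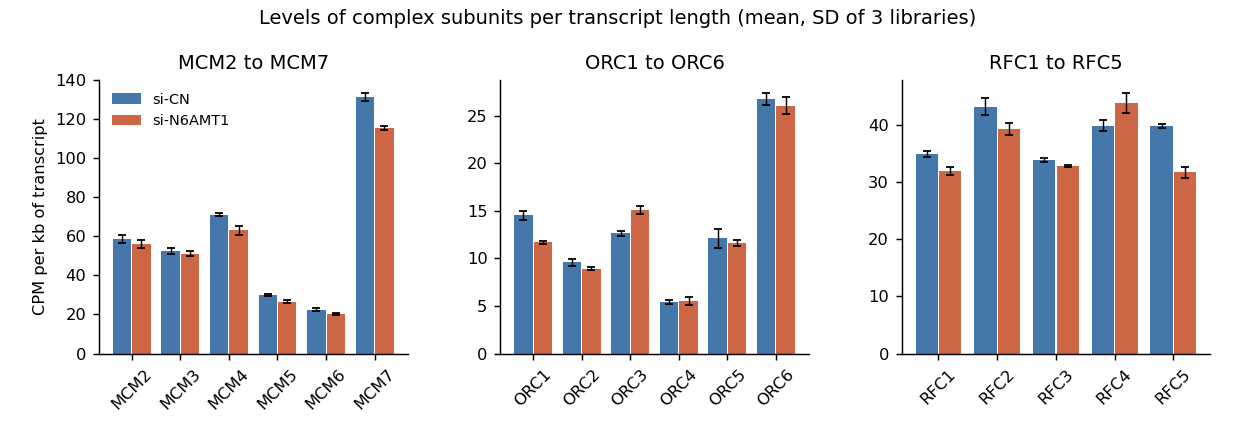
Levels of MCM2 to MCM7, ORC1 to ORC6 and RFC1 to RFC5 (CPM per kb of transcript) in si-CN (blue) and si-N6AMT1 (orange) libraries, with bars at the mean and error bars at the SD of 3 libraries. MCM7 stands above the rest of its ring in both groups, ORC3 passes ORC1 after si-N6AMT1, and RFC4 and RFC5 separate.

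Sequences of 7 bases, TTCACAT and TCACATA, had been chosen earlier from the fold changes of these libraries, in which genes that hold them in the 3′ UTR were more often lower, so their presence in the replication genes is a description only. The 3′ UTR of the reference transcript held either of them in 6 of 56 replication genes (10.7%), beside 22.5% of 13085 tested protein-coding genes with a 3′ UTR of at least 50 bases. The median 3′ UTR length was 946 bases in the replication genes and 1345 bases in all these genes. Genes with either sequence had longer 3′ UTRs. Among all 13085 genes the median was 3177 bases with either sequence and 991.5 bases without. Among the replication genes it was 2062 and 750.5 bases. The shares given next were not adjusted for length, so sequence and length cannot be told apart in them. Of the 6 genes, CDT1, MCM10 and RFC5 were downregulated and ORC2, ORC4 and WDHD1 were not called, and among all 13085 genes 28.4% of those with either sequence were downregulated, with a median log2 fold change of -0.06. Of the 50 replication genes without either sequence, CDC6, ORC1 and MCM7 among them, 20 (40.0%) were downregulated, with a median log2 fold change of -0.08, beside 10.4% and 0.02 for all such genes without them. Of the 73 further replication genes of the pathway with such a 3′ UTR, 11 of 21 with either sequence and 16 of 52 without were downregulated. The 3 sites in downregulated genes are shown 5′ to 3′ with the matched bases in capitals.
CDT1: cctggtggaTTCACATtaaaccggt
MCM10: taatgatgaTCACATAgtcttgatg
RFC5: tgtacaaatTTCACATttattttac
In GRCh37 they lie at chr16:88874883-88874907, chr10:13251843-13251867 and chr12:118469827-118469851, all on the plus strand.

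The rest of the replication pathway was read from 74 further genes, also chosen with earlier results of these data known, and all 74 were tested. Of these, 28 were downregulated (37.8%) and 2 upregulated, and their log2 fold changes had a median of -0.07. UHRF1, which brings maintenance methylation to newly copied DNA, had the smallest FDR, with 75.2, 75.5 and 74.4 CPM in the si-CN libraries and 59.1, 60.5 and 57.7 CPM in the si-N6AMT1 libraries (log2 fold change -0.34, standard error 0.0333, edgeR FDR = 6.97e-08). DTL, the adaptor that marks CDT1 for degradation on PCNA, had 149, 152 and 146 CPM in the si-CN libraries and 124, 124 and 125 CPM in the si-N6AMT1 libraries (log2 fold change -0.26, standard error 0.0258, edgeR FDR = 1.17e-07). No si-N6AMT1 library overlapped the si-CN libraries in either gene. DONSON, needed to build the helicase, had 50.7, 52.6 and 47.7 CPM in the si-CN libraries and 38.9, 41.0 and 37.7 CPM in the si-N6AMT1 libraries (log2 fold change -0.36, standard error 0.0447, edgeR FDR = 2.76e-06). SAMHD1, which degrades deoxynucleotides, had 97.5, 98.4 and 95.7 CPM in the si-CN libraries and 81.0, 86.3 and 83.8 CPM in the si-N6AMT1 libraries (log2 fold change -0.22, standard error 0.0310, edgeR FDR = 1.81e-05), lower together with the enzymes that make them. The 2 upregulated genes were ADA, adenosine deaminase (log2 fold change 0.15, standard error 0.0507, edgeR FDR = 0.0374), and MCM9, a helicase of DNA repair (log2 fold change 0.40, standard error 0.135, edgeR FDR = 0.0385), which had only 3.96 CPM on average in si-CN libraries. Neither call held under every omission of a library. ADA was not called without si-CN replicate 1 or 3 or si-N6AMT1 replicate 2 or 3 (edgeR FDR = 0.193, 0.0528, 0.0876 and 0.125), and MCM9 was not called without si-CN replicate 1 or 3 or si-N6AMT1 replicate 1 or 2 (edgeR FDR = 0.143, 0.148, 0.0874 and 0.153). By role, 8 of 15 genes of deoxynucleotide metabolism, 6 of 13 of clamp partners and 6 of 15 of origin firing were downregulated. So were 3 of 11 of fork remodelling, 3 of 10 of histone supply and 2 of 10 of primer removal. Among all tested genes 11.5% were downregulated and 9.78% upregulated. Within the range of si-CN level used above these shares were 19.6% and 14.3%, although the further genes ran more widely, from 3.96 to 402 CPM. The roles hold few genes each. No test was run between these roles.

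For 2 neighbouring gene groups the same fit gave the following values, side by side and without a test of the difference. Of 40 mitosis and spindle genes 20 were downregulated and the others were not called, with a median log2 fold change of -0.08. Of 36 DNA repair genes 6 were downregulated (16.7%) and 2 upregulated, with a median of -0.03. Beside these lists, 11.5% of all tested genes were downregulated, and 19.6% of those within the range of si-CN level used above. The DNA repair share lay between these values.

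Some of these genes overlap others in the annotation. The overlaps given are of whole gene bodies, introns included, whereas counts were estimated from transcripts. Reads could be counted for either gene only where their transcripts share sequence, which was not examined. The libraries were stranded, but the strand option of the counting is not given in the sources used here. On the opposite strand, RAD9A overlaps POLD4 by 6201 bases, the whole of POLD4, and had 51.9% of the POLD4 count without being called (log2 fold change -0.05). TYMS overlaps ENOSF1 by 3261 bases, and ENOSF1, at 73.0% of the TYMS count, was not called (log2 fold change 0.07). RFC4 overlaps EIF4A2 by 18 bases, and EIF4A2 had 1113% of the RFC4 count and rose by a similar amount (log2 fold change 0.16, edgeR FDR = 5.27e-06). DBF4 overlaps SLC25A40 by 145 bases, and SLC25A40 was downregulated (log2 fold change -0.15, edgeR FDR = 0.0397) whereas DBF4 was not called. RFC5 overlaps WSB2, which was not called, by 444 bases. On the same strand, where a strand option cannot separate the genes, CHAF1B overlaps MORC3, which was not called, by 757 bases. POLA2 overlaps the protein-coding gene ENSG00000285816 by 44032 bases, and that gene, at 30.7% of the POLA2 count, was not called (log2 fold change 0.09). FEN1 overlaps FADS2 by 4259 bases, and FADS2, at 18.4% of the FEN1 count, was not called (log2 fold change -0.02). PRIM1 overlaps NACA by 1191 bases, and NACA, at 1388% of the PRIM1 count, rose (log2 fold change 0.10, edgeR FDR = 0.00203). PRIM2 overlaps its near-identical copy PRIM2BP, which had 67.1% of its count, so its value is uncertain. The part of these overlaps in the fold changes was not tested.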

How the data were processed

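The authors trimmed reads with Trim Galore, used kallisto v0.46.0 on GENCODE transcripts (hg19) to estimate counts and summed them by gene; they deposited these expected counts as whole numbers without normalization. All 6 columns were matched to samples by name. Genes kept by edgeR's expression filter (minimum count 10) were scaled by TMM and tested with the quasi-likelihood test (R v4.3.3, edgeR v4.0.16) over all 6 libraries without covariates; p-values were adjusted by Benjamini-Hochberg, and genes with an FDR under 0.05 were called. Standard errors were derived from the F statistic and the fold change. Pairs of libraries of a group differed beyond sampling noise (chi-square per degree of freedom 1.36 to 1.77, against 6.85 to 7.81 between groups). All were kept as replicates, although this spread may be technical and does not show that the cultures were separate.

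Symbols, positions, transcript lengths and 3′ UTRs came from GENCODE v44 on GRCh37 (62149 of 62438 genes matched), promoters from RefSeq on GRCh38.p14, using the entry listed at the top for each symbol. Named are all 56 genes, with every library for those called, N6AMT1, the 5 further replication genes with the smallest FDR in each direction, and a few markers; an item that these rules name is not reported here. The genes and lists were chosen with earlier results of these data known. Alternatives were RLE size factors, DESeq2 v1.42.0 on all genes and on the highest genes only, limma-voom (limma v3.58.1), no expression filter, mitochondrial genes left out, a replicate block alone or with GC correction, and each library left out.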

Additional observations from a re-analysis of the deposited data

How the results depend on the processing

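The count of downregulated replication genes stayed within 1.5 times the main value of 23 under all 14 alternatives. It was 16 by DESeq2 on all genes, 18 by DESeq2 on the highest genes, 23 by limma-voom and 20 to 22 with a library left out. Upregulated replication genes numbered 2 or 3 throughout. Medians of the 56 log2 fold changes ran from -0.10 to -0.08. Of the 26 called genes, 17 were called under every alternative and none changed sign. Over all genes, DESeq2 called 1139 lower and 796 higher on all genes, and 1270 and 942 on the highest genes, against 1993 and 1694 by edgeR; the cause was not tested. CHAF1B, RFC2, CDT1, GMNN, GINS2, POLE, RFC4 and TIPIN were not called by DESeq2 on all genes. The 2 upregulated genes among the further replication genes became 0 by DESeq2 on all genes, where MCM9 had no adjusted p, and 0 on the highest genes, 1 with no expression filter, 1 with the replicate block and GC correction, and 0 to 3 with a library left out. N6AMT1 stayed between -1.18 and -1.04 with a library left out, and DESeq2 on all genes gave it no adjusted p. Same-numbered libraries did not deviate together (r = -0.0381, -0.0422 and 0.00997 across genes), so the numbers do not pair them. With the replicate block 21 replication genes were downregulated, CDT1 and GMNN not among them, and with GC correction as well 23, with RRM2 (edgeR FDR = 0.105) and GMNN no longer called and MCM2 and POLD2 added. With the block alone N6AMT1 had -1.10, all genes 1804 lower and 1522 higher calls. The 4 genes under 20 CPM in si-CN, GINS4, POLE2, PRIM2 and TIPIN, carry standard errors of 0.0599 to 0.0794 on the log2 scale, so depth limits what can be called in them.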
